A study of Mus musculus with 4 samples.

Results

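The interferon-stimulated genes described here are 32 genes that type I or type II interferon is known to induce, chosen by name from the gene rows of both count matrices. A row with the member's symbol was found for 31 of the 32, out of 32285 gene rows, and Mx1 was not analysed here. The cells came from the bone marrow of 2 male mice, 3 months old, that carried Tppp3CreER and LSLTdTomato. Tamoxifen was given first on postnatal day 0 and last on postnatal day 3. With these alleles it switches on tdTomato in cells that express Tppp3 at that time, and their descendants keep it. Cells negative for lineage markers and positive for Sca-1 and Kit were sorted by tdTomato, tagged with 4 antibody hashtags (1 for each mouse and gate) and profiled with 2 droplet chemistries, GEM-X and v3.1. Every group carried the same alleles and tamoxifen, and no group given interferon was analysed here, so the levels are those of marrow with no added interferon. The sort is described both as tubes that pooled the mice and as separately hashed samples, and the hashtags are taken here to separate the mice.

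Interferons bind receptors that act through JAK kinases. Type I interferon brings a complex that holds STAT2 and IRF9 to interferon-stimulated response elements (ISRE), while interferon gamma acts largely through gamma-activated sites (GAS). Low, constitutive signalling keeps some of these genes partly on in healthy tissue, and stem cells of several tissues are known to express a subset of them without infection.

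After filters, 32330 cells carried exactly 1 hashtag. The tdTomato-negative tubes of mouse 1 and mouse 2 held 12144 and 12386 cells, and the tdTomato-positive tubes 3867 and 3933. Median depth ran from 7731 to 9315 UMIs (unique molecules) per cell, with both tubes of mouse 1 above both of mouse 2, and the GEM-X and v3.1 libraries shared 0 barcodes. Kit stood at 285 to 373 CPM (UMIs of the gene scaled to equal library totals) and Ly6a, which encodes Sca-1 and itself responds to interferon, at 58.02 to 64.5 CPM, while the T cell gene Cd3e stayed at or under 0.0696 CPM. Tppp3 was at 0.494 to 0.718 CPM over the 4 tubes, too low to check the gates. Cells were clustered without the members and without the genes of wider interferon lists. Of the cells, 7172 were HSC-like (haematopoietic stem cell-like), in 2 clusters that raised 12 and 14 of 14 stem cell markers. Named for a lineage were 1225 megakaryocyte-platelet-like, 1186 lymphoid-like, 447 granulocyte-monocyte-like and 167 erythroid-like cells, beside 194 B cell-like and 79 T and NK cell-like cells. The other 21860 cells stayed unnamed. Some named clusters also raised markers of other cells. The lymphoid-like one raised 3 of 4 T and NK cell markers detected. The megakaryocyte-platelet-like one raised 4 of 5 mast-basophil, 5 of 9 erythroid and 4 of 13 stem cell markers. Of the megakaryocyte-platelet markers, the HSC-like clusters raised 2 of 8 and 4 of 9. The granulocyte-monocyte-like one, led by Elane and S100a9, raised 6 of 6 neutrophil markers. Their part in the results was not tested.

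The 150 bases just before the RefSeq start (GRCm38.p6) are shown for 7 members, because interferon acts on such genes through short motifs near the start. Capitals mark the ISRE core (GAAA, any 2 bases, GAAA) and the GAS core TTCNNNGAA, searched on both strands, and overlapping matches run together. Isg15 is read at chr4:156200819-156200968 on the minus strand. Ifit1 is read at chr19:34640739-34640888 on the plus strand. Bst2 is read at chr8:71537473-71537622 on the minus strand. Gbp7 is read at chr3:142530186-142530335 on the plus strand. Igtp is taken from chr11:58199406-58199555 on the plus strand. Tgtp2 is taken from chr11:49064213-49064362 on the minus strand. Ifitm1 is taken from chr7:140967926-140968075 on the plus strand.
Isg15: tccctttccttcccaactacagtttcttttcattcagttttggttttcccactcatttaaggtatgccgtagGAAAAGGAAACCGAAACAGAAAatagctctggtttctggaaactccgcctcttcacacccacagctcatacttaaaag
Ifit1: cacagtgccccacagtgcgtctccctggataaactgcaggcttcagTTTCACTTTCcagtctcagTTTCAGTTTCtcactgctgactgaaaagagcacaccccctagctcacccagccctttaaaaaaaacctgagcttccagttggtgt
Bst2: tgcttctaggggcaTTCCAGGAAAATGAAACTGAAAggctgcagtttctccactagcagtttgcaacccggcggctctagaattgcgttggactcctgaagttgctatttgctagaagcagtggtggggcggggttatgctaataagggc
Gbp7: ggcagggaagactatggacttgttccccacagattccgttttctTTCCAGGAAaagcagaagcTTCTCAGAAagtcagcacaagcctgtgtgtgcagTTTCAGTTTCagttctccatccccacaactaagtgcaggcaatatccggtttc
Igtp: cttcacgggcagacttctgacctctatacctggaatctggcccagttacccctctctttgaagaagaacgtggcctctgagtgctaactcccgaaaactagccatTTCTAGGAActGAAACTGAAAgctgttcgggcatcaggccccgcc
Tgtp2: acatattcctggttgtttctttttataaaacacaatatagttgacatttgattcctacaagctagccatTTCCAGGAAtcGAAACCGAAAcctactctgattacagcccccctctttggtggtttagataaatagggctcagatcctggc
Ifitm1: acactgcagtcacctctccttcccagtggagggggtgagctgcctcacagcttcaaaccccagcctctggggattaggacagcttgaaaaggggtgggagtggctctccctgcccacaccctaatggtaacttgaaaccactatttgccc
Isg15 holds 3 overlapping ISRE cores, and Ifit1 holds 2 on the opposite strand. Igtp and Tgtp2, which encode immunity-related GTPases, each hold a GAS core followed by an ISRE core, 45 and 34 bases before the start in Igtp and 81 and 70 in Tgtp2. Bst2 holds a GAS core that runs into 2 overlapping ISRE cores, and Gbp7 holds 2 GAS cores and 1 ISRE core. Ifitm1, the member with the highest level, has neither in its window, but that window (chr7:140967826-140968125) lies inside the GENCODE gene. The GENCODE start is at 140967221, and the bases before it were not searched. A window from 250 bases before to 50 after the start was found for 23 members. The ISRE core was in 15 of these 23 (65.2%), in 42 of 88 other interferon-stimulated genes (47.7%) and in 3.99% of 27025 genes. The GAS core was in 8 of 23 members (34.8%), in 12.5% of the other interferon-stimulated genes and in 9.55% of all genes. A match describes the letters and is not a mapped binding site.

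Every one of the 31 members had UMIs in each of the 4 tubes. Over all cells the median member stood at 27.5 CPM, with 8 members above 50 CPM, 19 from 10 to 50 and 4 under 10. These are 3′ UMI counts, 1 tag per molecule, so members are ordered by CPM with no correction for length. Ifitm1 and Ifitm3, membrane proteins that block virus entry, led with 724 and 429.8 CPM. Next came Ifi27, a small membrane protein, with 105 CPM, and Bst2 (tetherin, which holds budding viruses at the cell surface) with 104 CPM, which did not differ beyond their spread over tubes. Gbp7, a guanylate-binding protein, stood at 76.1 CPM. Irf1, a transcription factor, and Ddx58, the RNA sensor RIG-I, lay within each other's spread at 60.3 and 60.2 CPM. At the low end were Ifit1, an RNA-binding antiviral protein, with 8.18 CPM, Zbp1 with 6.77, Rsad2 (viperin) with 5.04 and Ifit3 with 1.22. Ifit3, Tgtp2, Oas1a, Gbp2 and Ifi27l2a have related genes (Ifit3b, Tgtp1, Oas1g, Gbp2b and Ifi27l2b). How alike the sequences are and whether reads were shared was not checked, so their levels are uncertain.

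The rest of the pathway was read in the same cells. Of 21 interferon ligand genes, 5 had any UMI, and these held 28 UMIs in all. Receptors were well detected: Ifnar2 and Ifnar1, the chains of the type I receptor, stood at 155 to 173 and 40.8 to 44.6 CPM over the tubes, and Ifngr1, of the interferon gamma receptor, at 86.6 to 93.6 CPM. The kinase gene Jak1 stood at 226 to 264 CPM.

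HSC-like cells held more of the members in CPM than any lineage-named class. Summed over the 29 members other than Ifitm1 and Ifitm3, they stood at 1422, 1418, 1271 and 1289 CPM in mouse 1 negative, mouse 1 positive, mouse 2 negative and mouse 2 positive cells, an order kept for all values by tube (mean 1350.1 ± 81.3, SD, n = 4 tubes). The sum was 982 ± 89.8 CPM in lymphoid-like, 659 ± 40.8 in megakaryocyte-platelet-like, 476 ± 32.01 in granulocyte-monocyte-like and 364 ± 55.3 in erythroid-like cells. All 4 HSC-like tubes lay above every tube of these classes. Ifitm1 and Ifitm3 together stood at 1798 ± 191 CPM in HSC-like cells and at 583 ± 175, 564 ± 38.4, 442 ± 113 and 138 ± 20.4 CPM in the same 4 classes. HSC-like cells also held the fewest UMIs of these classes, a median of 6626 per cell against 12067.5 in lymphoid-like, 11440.0 in megakaryocyte-platelet-like, 25302 in granulocyte-monocyte-like and 34489 in erythroid-like cells. Counted per cell, the 29 members gave 9.403 ± 1.18 UMIs in HSC-like, 12.4 ± 1.23 in lymphoid-like, 7.83 ± 0.896 in megakaryocyte-platelet-like, 10.99 ± 0.733 in granulocyte-monocyte-like and 11.6 ± 0.812 in erythroid-like cells, so the order depended on the scale. Differences in RNA per cell and in capture cannot be told apart in these counts.

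**Figure D1:**
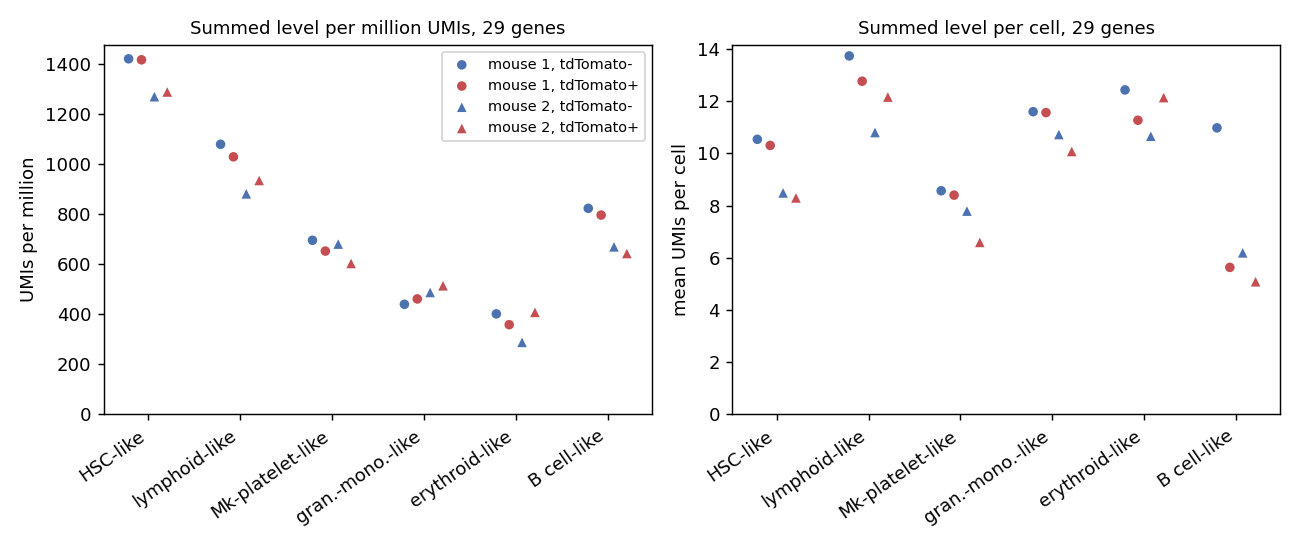
Summed level of the 29 members other than Ifitm1 and Ifitm3 in each of 4 tubes, in CPM (left) and as mean UMIs per cell (right), for 6 cell classes; marker shape gives the mouse and colour the tdTomato gate, as in the legend. HSC-like tubes lie highest in CPM, from 1271 to 1422, and all lie below the lymphoid-like mean of 12.4 per cell.

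Each member was tested between classes with edgeR's quasi-likelihood test over all genes, with the tube as a block. In megakaryocyte-platelet-like cells 28 of 31 members were lower than in HSC-like cells and 1 was higher, where 34.4% of 12971 genes were called lower and 33.5% higher. The median log2 difference was -0.95 for members and -0.02 for all genes. In lymphoid-like cells 19 of 31 members were lower and 5 higher, where 33.5% of genes were called lower and 32.8% higher, with medians of -0.34 and -0.02. A fit with cell number as the offset, chosen after seeing the data, gives differences per cell and moved the median of all genes to 0.65 and 0.69. On that scale 17 members were lower and 7 higher in megakaryocyte-platelet-like cells, where 10.7% and 70.3% of 12790 genes were. In lymphoid-like cells 10 members were lower and 15 higher, where 11.3% and 71.8% of genes were. The member medians were -0.299 and 0.36. The tubes come from 2 mice and are a block, so p-values here measure only how a class difference varies over 4 tubes. Differences below are log2 values on the CPM scale unless called per cell.

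**Figure D2:**
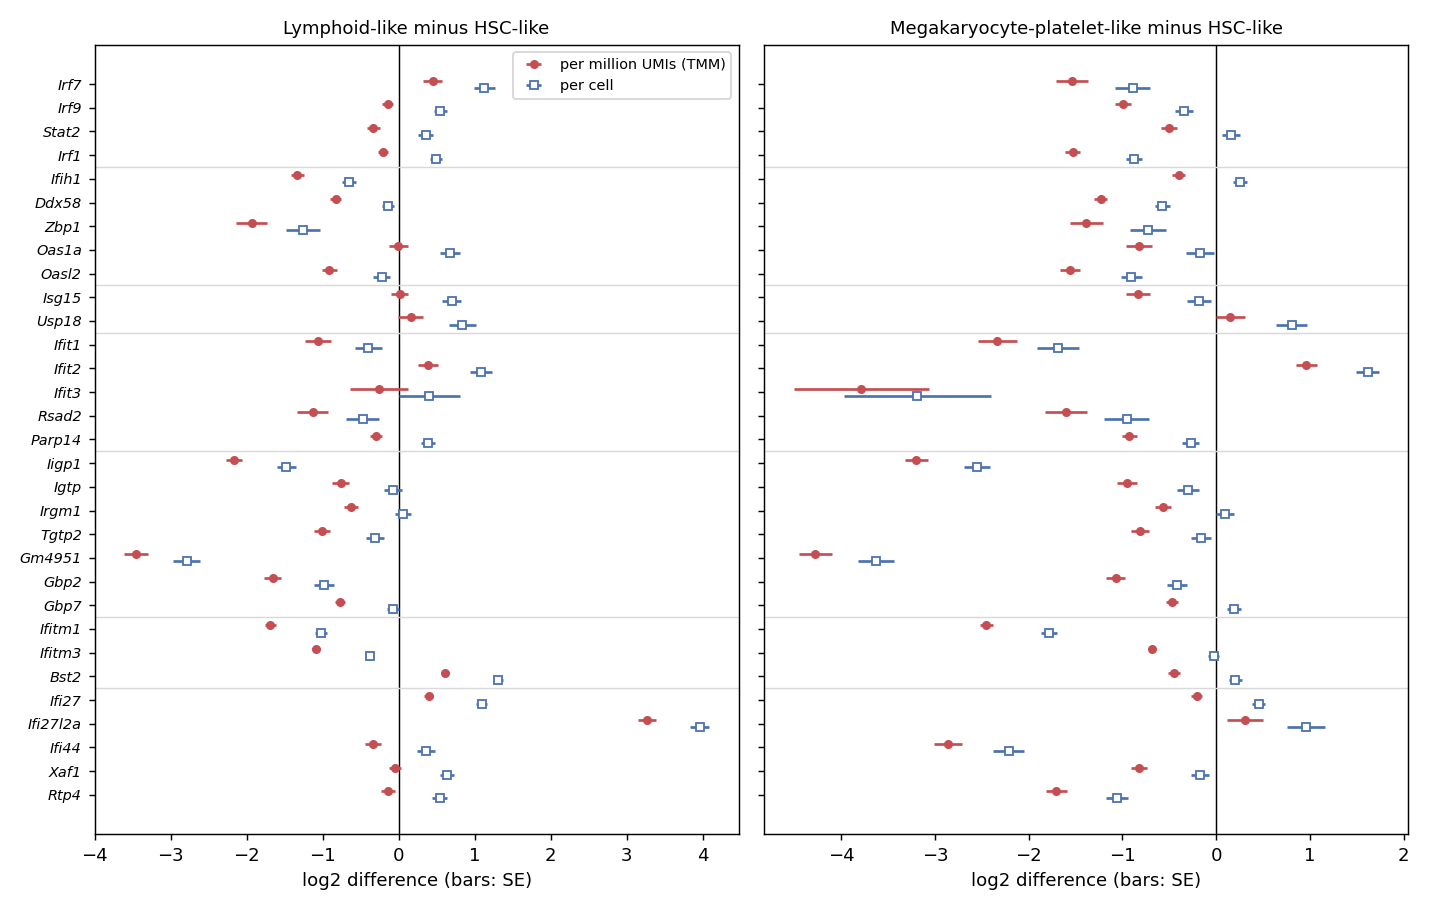
Log2 difference of each of 31 members between lymphoid-like (left) or megakaryocyte-platelet-like (right) and HSC-like cells, with standard errors, on the CPM scale (filled red) and per cell (open blue); grey lines separate the functional groups. Gm4951, Iigp1 and Ifitm1 lie left of 0 on both scales in both panels, and Ifi27l2a lies at 3.26 on the CPM scale in lymphoid-like cells.

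The interferon-inducible GTPases, known for attacking the vacuoles of intracellular pathogens, included the member with the widest difference in both classes. That member, Gm4951, a GTPase gene on chromosome 18, stood at 53.7, 52.9, 45.5 and 47.4 CPM in HSC-like cells. It stood at 4.76, 3.597, 1.91 and 8.88 CPM in lymphoid-like cells and 2.99, 0.544, 3.104 and 0.822 CPM in megakaryocyte-platelet-like cells. No tube of either class reached the lowest HSC-like tube. The difference was -3.46 ± 0.16 (SE) in lymphoid-like cells (edgeR adjusted p = 5.2e-24) and -4.28 ± 0.18 in megakaryocyte-platelet-like cells (edgeR adjusted p = 6.1e-26). Iigp1, which encodes the GTPase Irga6 and lies on the same chromosome, stood at 78.3, 80.8, 56.996 and 67.4 CPM in HSC-like cells. It stood at 14.1, 19.98, 13.9 and 16.3 CPM in lymphoid-like and 10.3, 4.35, 5.84 and 4.93 CPM in megakaryocyte-platelet-like cells, again with no overlap. Its differences were -2.16 ± 0.11 and -3.199 ± 0.12 (edgeR adjusted p = 1.2e-22 and 5.0e-27). Clustering at the coarser Leiden resolution 0.5 put 2618 cells in the megakaryocyte-platelet-like class, and its differences there were -2.78 for Gm4951 and -2.38 for Iigp1, both still called. Gbp2, a guanylate-binding protein, fell from 45.2 ± 3.93 CPM in HSC-like to 12.99 ± 1.795 CPM in lymphoid-like cells. All 7 GTPases, with Igtp, Irgm1, Tgtp2 and Gbp7, were lower in both classes. Per cell, Irgm1 was slightly above HSC-like cells in both (0.06 and 0.09, short of the test), and Gbp7 was higher in megakaryocyte-platelet-like cells (0.19).

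The share of cells with a UMI was compared at equal depth, with every cell thinned to 4000 UMIs and 1784 shallower cells left out. Iigp1 was seen in 16.5% of 6757 HSC-like cells (exact 95% interval 15.6 to 17.4) and Gm4951 in 15.4% (14.6 to 16.3). Iigp1 was seen in 5.69% of lymphoid-like, 2.53% of megakaryocyte-platelet-like, 0.911% of granulocyte-monocyte-like and 1.81% of erythroid-like cells. Gm4951 was seen in 2.07%, 0.7601% and 0.683% of the first 3 and in 0 of 166 erythroid-like cells, which allows a share of cells with a UMI at this depth of up to 1.81% (3 cells of the total). Unthinned, the HSC-like shares were 24.3% for Iigp1 and 22.2% for Gm4951, against 3.59% and 0.599% of the deeper erythroid-like cells. These intervals and limits cover counting error only.

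Among the membrane proteins, Ifitm1 stood at 1248, 1252, 1043 and 1063 CPM in HSC-like tubes. It stood at 407, 405, 243 and 181 CPM in lymphoid-like and 189.8, 203, 182 and 206 CPM in megakaryocyte-platelet-like tubes, all below the HSC-like ones. The differences were -1.69 ± 0.07 and -2.45 ± 0.07 (edgeR adjusted p = 3.4e-26 and 3.0e-32), and -2.29 and -1.77 with clusters at resolution 0.5. Ifitm3 fell by 1.09 and 0.69 on the log2 scale, and in megakaryocyte-platelet-like cells it stood above Ifitm1 (369 ± 38.3 against 195 ± 11.4 CPM). Per cell, its difference there was -0.03, short of the test. Bst2 was higher in lymphoid-like cells, at 139.8, 137, 127 and 119.9 CPM against 97.7, 99.2, 90.6 and 90.7 CPM in HSC-like tubes, with no overlap and a difference of 0.61 ± 0.06 (edgeR adjusted p = 3.9e-13). In megakaryocyte-platelet-like cells Bst2 was lower on the CPM scale (-0.45) and higher per cell (0.204).

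The transcription factors were mixed. Irf1, which both interferon types induce, stood at 82.97 ± 6.17 CPM in HSC-like and 25.6 ± 3.997 CPM in megakaryocyte-platelet-like cells, a difference of -1.53 ± 0.08 (edgeR adjusted p = 7.2e-22). In lymphoid-like cells Irf1 was lower on the CPM scale (-0.21) and higher per cell (0.49), both past the test, although the first was lost without the tube block, with GEM-X alone and with mouse 1's negative tube left out (edgeR adjusted p = 0.06 in the last). Irf7, which amplifies type I interferon production, was lower in megakaryocyte-platelet-like cells, at 4.49 ± 2.63 against 15.7 ± 3.51 CPM. In lymphoid-like cells Irf7 was higher by 0.45 ± 0.13, at 23.4, 23.2, 17.7 and 14.8 against 17.8, 18.6, 15.5 and 10.8 CPM, tubes that overlap. That call was lost without the negative tube of mouse 1 (0.399, edgeR adjusted p = 0.057), and DESeq2 did not make it (adjusted p = 0.12). Irf9 and Stat2, which act in 1 DNA-binding complex, fell in megakaryocyte-platelet-like cells by 0.99 and 0.504 on the log2 scale, and per cell Stat2 was at 0.15, short of the test. In lymphoid-like cells Stat2 was lower on the CPM scale (-0.33) and higher per cell (0.36), and Irf9 was at -0.15 on the CPM scale, short of the test. At resolution 0.5 the Stat2 call was lost (-0.17) and Irf9 was called lower (-0.28).

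All 5 nucleic acid sensors were lower in megakaryocyte-platelet-like cells, and all but Oas1a in lymphoid-like cells. Zbp1, which senses Z-form nucleic acid and can trigger cell death, stood at 12.9 ± 1.82 CPM in HSC-like and 2.903 ± 1.07 CPM in lymphoid-like cells, a difference of -1.93 ± 0.21 (edgeR adjusted p = 1.9e-11). Ifih1, the RNA sensor MDA5, stood at 70.9 ± 2.09 CPM in HSC-like, 24.5 ± 2.66 in lymphoid-like and 48.9 ± 4.37 in megakaryocyte-platelet-like cells, and per cell it was higher in the last (0.25). Ddx58 stood at 91.7 ± 4.69, 46.3 ± 2.16 and 36.3 ± 2.601 CPM in the same classes. Oasl2, an oligoadenylate synthetase-like protein, fell by 0.92 and 1.56 on the log2 scale. Oas1a, which makes the signal that activates RNase L, was at 14.7 ± 4.13 CPM in lymphoid-like against 16.9 ± 1.63 CPM in HSC-like cells, short of the test.

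Isg15, a ubiquitin-like protein that is attached to other proteins, was at 27.6, 31.8, 26.4 and 23.6 CPM in HSC-like and 27.9, 31.2, 14.8 and 29.6 CPM in lymphoid-like tubes, which overlap (edgeR adjusted p = 0.93). In megakaryocyte-platelet-like cells Isg15 was lower, at 13.4 ± 2.41 CPM. Usp18, which removes Isg15 from proteins and damps receptor signalling, passed the test in neither class on the CPM scale and was higher in both per cell (0.84 and 0.81). At resolution 0.5 it was higher in lymphoid-like cells (0.48).

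The RNA-level effectors moved in different directions. Ifit1 fell by 1.07 in lymphoid-like and 2.34 in megakaryocyte-platelet-like cells on the log2 scale, the second -2.94 with GEM-X alone. Rsad2, which makes a chain-terminating nucleotide, fell by 1.13 and 1.6. The first value ran from -0.29 with v3.1 alone, where the call was lost (edgeR adjusted p = 0.42), through -1.91 without the negative tube of mouse 1, to -2.38 without the highest 1% of cells by summed members. Ifit3 stood at 0.428, 0, 0 and 0 CPM in megakaryocyte-platelet-like tubes (2 UMIs in 1225 cells) against 3.298, 2.09, 2.21 and 0.793 CPM in HSC-like tubes (118 UMIs in 7172 cells), a difference of -3.79 ± 0.72 (edgeR adjusted p = 1.0e-05). With so few UMIs Ifit3 fell under the filter, and was not tested there, with either chemistry alone, with the highest 1% of cells left out, or with mouse 1's negative tube left out. It did not pass the test in lymphoid-like cells. Ifit2, of the same family as Ifit1, was the 1 member higher in megakaryocyte-platelet-like cells, with 28.2, 26.7, 32.7 and 32.05 CPM against 19.5, 19.6, 13.98 and 15.7 CPM. The tubes do not overlap, and the difference was 0.96 ± 0.11 (edgeR adjusted p = 3.9e-10). In lymphoid-like cells Ifit2 was higher by 0.39, a call lost without the negative tube of mouse 2 (0.24, edgeR adjusted p = 0.12) and with v3.1 cells alone (0.09). Parp14, an ADP-ribosyltransferase, was lower in both classes on the CPM scale and higher per cell in lymphoid-like cells (0.39), where v3.1 alone did not call it lower (-0.22).

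Ifi27l2a, a relative of Ifi27, was higher in lymphoid-like than in HSC-like cells. It stood at 7.09, 7.73, 4.69 and 2.85 CPM in HSC-like tubes and at 64.4, 49.6, 46.8 and 26.6 CPM in lymphoid-like tubes, each of them higher. The difference was 3.26 ± 0.12 (edgeR adjusted p = 9.2e-28), and 3.96 per cell. In megakaryocyte-platelet-like cells, at 8.13, 5.98, 4.93 and 6.16 CPM, the tubes overlap those of HSC-like cells, with a difference of 0.31 ± 0.19 (edgeR adjusted p = 0.15) and 0.96 per cell, which passed the test. In erythroid-like cells Ifi27l2a was lower (-2.96 ± 0.88, edgeR adjusted p = 0.0027), on 3 UMIs in 167 cells, and per cell it was at -1.06, short of the test. At equal depth 17.3% of lymphoid-like, 21.1% of B cell-like and 2.04% of HSC-like cells had an Ifi27l2a UMI. Ifi27 was higher in lymphoid-like cells by 0.395 ± 0.06, with tubes that overlap. Ifi44, an interferon-induced cytoplasmic protein, fell by 2.86 in megakaryocyte-platelet-like cells on the log2 scale, and Rtp4, a receptor transporter protein, by 1.71. Xaf1, which promotes cell death, fell there by 0.82 and, like Rtp4, did not pass the test in lymphoid-like cells on the CPM scale.

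Smaller classes, with at least 15 cells in each tube, were added after seeing the data. In erythroid-like cells 28 of 30 members tested were lower and 0 higher (43.8% and 35.7% of 12268 genes), with a median of -2.41 for members and -0.19 for all genes. In granulocyte-monocyte-like cells 27 of 30 were lower and 2 higher (41.4% and 36% of genes), with medians of -1.92 and -0.098. In B cell-like cells 19 of 30 were lower and 1 higher (30.2% and 26.3% of genes), with medians of -0.93 and -0.11. Per cell these became 13 lower and 10 higher in erythroid-like cells (12.2% and 74.1% of genes). They became 14 and 7 in granulocyte-monocyte-like (8.18% and 79.8%) and 15 and 2 in B cell-like cells (17.7% and 36.3%). The medians of all genes were then 1.81, 1.397 and 0.25. Some members had almost no counts there: erythroid-like cells held 3 UMIs of Gm4951 and 1 of Ifit1, and granulocyte-monocyte-like cells 10 of Ifi44 and 11 of Gm4951. Ddx58 stood at 7.46 ± 4.22 CPM in erythroid-like and 7.25 ± 2.32 CPM in granulocyte-monocyte-like cells, and Irf1 at 4.91 ± 2.61 CPM in erythroid-like cells. Bst2 was higher in granulocyte-monocyte-like cells (135, 146, 136 and 153 CPM, 0.89 ± 0.07), as was Ifi27l2a (7.69, 8.35, 14.5 and 34.4 CPM, 1.39 ± 0.29). Ifi27l2a was also the 1 member higher in B cell-like cells, at 51.3, 37.3, 63.2 and 86.7 CPM. Lower in all 5 classes on the CPM scale were 16 members, of which 5 (Gbp2, Gm4951, Ifit1, Ifitm1 and Iigp1) were lower in all 5 per cell too. The share of all genes lower in all 5 classes was not computed, so these counts have no background.

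**Figure D3:**
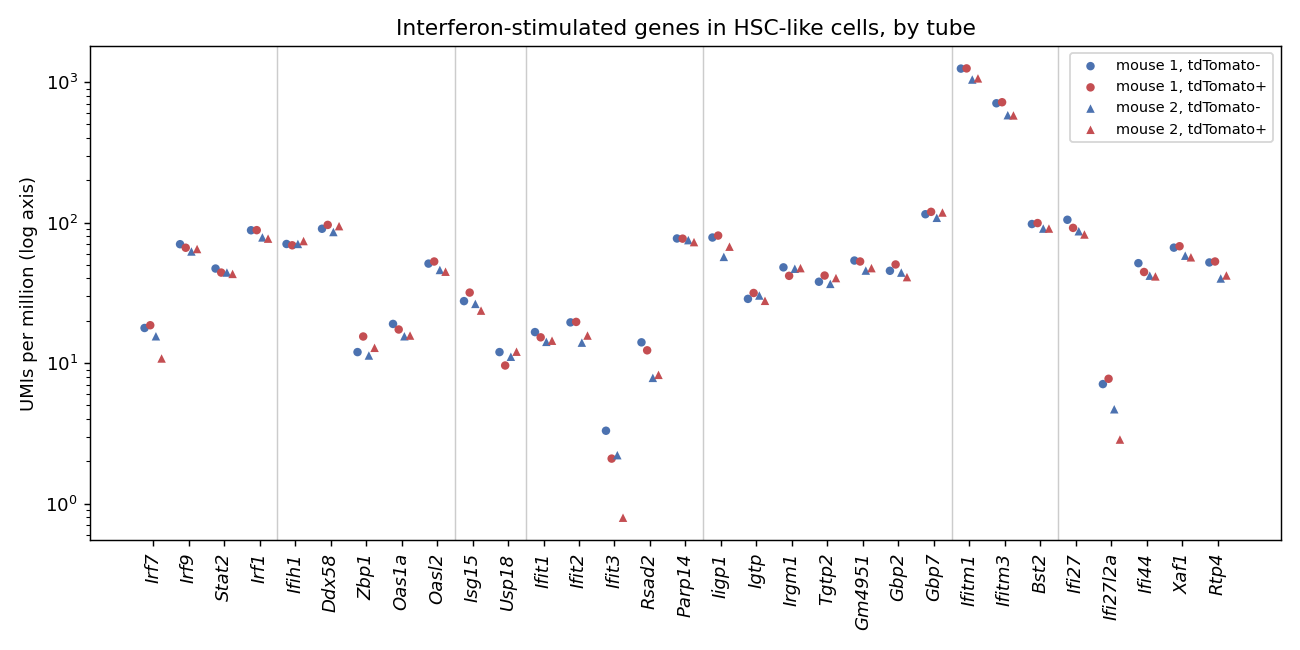
Level of each of 31 members in HSC-like cells (CPM, log axis) in the 4 tubes, in functional groups separated by grey lines; marker shape gives the mouse and colour the tdTomato gate, as in the legend. Ifitm1 leads at 1043 to 1252, Ifit3 is lowest, and the tubes of most members lie close together.

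The sum of the 29 members ran from 658 to 1403 CPM over the unnamed clusters, above the granulocyte-monocyte-like and erythroid-like classes. It was 1360.3 ± 73.7 CPM in a cluster with Wfdc17, Sema3d and Ccl3 among its leading genes. It was 1403 ± 95.9 CPM in one led by histone genes, where Ifi27l2a, itself a leading gene, reached 90.9 CPM. The HSC-like clusters stood at 1316 ± 91.3 and 1399.7 ± 63.9 CPM. Clusters led by the cell cycle genes E2f1 and Cenpf stood at 817 ± 44.5 and 884 ± 60.4 CPM, and one with Ctsg, Mcpt8 and Mpo at 658 ± 36.3 CPM. In a cluster led by the immunoglobulin genes Igkc, Igha and Jchain, Ifitm1 and Isg15 were among the 10 leading genes, with Isg15 at 39.5 CPM. Gm4951 stood at 63.2 CPM in the HSC-like cluster led by Ncam2 and at 40.02 CPM in the other.

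The wider lists were read from the same fits. Of 89 other interferon-stimulated genes, 64 were lower and 8 higher in megakaryocyte-platelet-like cells, and 48 lower and 24 higher in lymphoid-like cells, with medians of -0.55 and -0.27. Over all genes 34.4% were lower and 33.5% higher in the first class, and 33.5% and 32.8% in the second. Per cell, of 87 tested, 21 were lower and 36 higher in megakaryocyte-platelet-like cells (10.7% and 70.3% of all genes), and 17 and 58 in lymphoid-like cells (11.3% and 71.8%). Shisa5, a cell death gene, and Slfn5, a Schlafen family gene, were at -1.95 and -3.41 in megakaryocyte-platelet-like cells. Cd274, which encodes PD-L1, was at -2.05 in lymphoid-like cells, and Ifi209, of a DNA-sensor family, at 5.66. Of 21 receptor and signalling genes, 15 were lower and 4 higher in megakaryocyte-platelet-like cells, among them Ifngr2 (-1.996) and Jak1 (-0.46). In lymphoid-like cells 7 were lower and 7 higher, a share close to that of all genes in each direction, with Stat3 at -1.14, Ifnar2 at 1.01 and Irf8, a factor of lymphoid and myeloid cells, at 4.45. Of 15 sensing genes, 9 were lower and 0 higher in megakaryocyte-platelet-like cells, with Samhd1 at -1.14 and Tmem173, which encodes STING, at -2.41. In lymphoid-like cells 6 were lower and 5 higher, also near the share of all genes, with the endosomal RNA receptor gene Tlr7 at 6.69. Per cell, the receptor and signalling genes lower and higher became 4 and 12 in megakaryocyte-platelet-like and 2 and 16 in lymphoid-like cells. The sensing genes became 5 and 7, and 2 and 10.

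The tdTomato gates were then compared within mice. In all cells 0 of 31 members were called between tdTomato-positive and tdTomato-negative cells by edgeR, where 0.796% of 16586 genes were called. The members' log2 differences ran from -0.16 to 0.13, 2 had an unadjusted p under 0.05 (as did 6.52% of genes), and DESeq2 called 0. Irf7 stood at 14.6 and 14.03 CPM in the negative and positive tube of mouse 1 and 11.1 and 8.84 CPM in those of mouse 2, a difference of -0.16 ± 0.07 (edgeR adjusted p = 0.48). Ifi27l2a stood at 24.4, 20.8, 12.6 and 12.4 CPM, a difference of -0.14 ± 0.06 (edgeR adjusted p = 0.54). For both genes both tubes of mouse 1 lay above both of mouse 2, so the gates had to overlap over both mice.

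In HSC-like cells 0 of 31 members were called between the gates (0.00736% of 13587 genes), with 4 at an unadjusted p under 0.05 (5.26% of genes) and 0 called by DESeq2. Iigp1 was at 0.04 in mouse 1 and 0.23 in mouse 2 (positive minus negative, log2), with a fitted difference of 0.15 ± 0.06 (edgeR adjusted p = 0.94). Ddx58 stood at 96.3 and 94.3 CPM in the positive tubes and 90.4 and 85.7 CPM in the negative tubes, which do not overlap, a difference of 0.12 ± 0.05 (edgeR adjusted p = 0.94). Positive tubes lay wholly above negative tubes for 4 members (Ddx58, Zbp1, Gbp7 and Tgtp2) and wholly below for 2 (Ifit3 and Stat2), where 13.5% and 15.3% of the 13587 genes did so. These counts ignore the pairing by mouse. A gene whose mouse 1 tubes both lie above, or both below, the mouse 2 tubes cannot separate by gate. That held for 21 and 1 of the 31 members, against 20.3% and 24.99% of genes, so members and genes are not on an equal footing here. Ifit3, with 118 UMIs in all, had the widest difference, -0.98 ± 0.39 (edgeR adjusted p = 0.94). The Ifit3 value was -0.36 without the highest 1% of cells. In fits without the block it was -0.37 without the positive tube of mouse 2 and -1.77 without that of mouse 1.

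In the 4 lineage-named classes pooled, 0 of 30 members tested were called (0.577% of 13006 genes), with 0 at an unadjusted p under 0.05 and 0 called by DESeq2. This pool, also used for the interaction below, mixes classes whose mean summed level ran from 364 to 982 CPM. Their shares were not matched between gates, and the part of class mix was not tested. With v3.1 cells alone Ifi44 was lower in tdTomato-positive cells (-1.396, edgeR adjusted p = 0.028). In lymphoid-like cells 0 of 29 members tested were called (0.0751% of 10658 genes), with 2 at an unadjusted p under 0.05 (3.83% of genes). In megakaryocyte-platelet-like cells 0 of 29 were called by edgeR (0.0797% of 11286 genes), with 6 at an unadjusted p under 0.05 (5.99% of genes). There the positive tubes lay wholly below the negative tubes for 12 of the 29 members and wholly above for 2, where 15.7% and 13.8% of the 11286 genes did so. These counts also ignore the pairing. The mice separated, which prevents a separation by gate, for 5 members (mouse 1 above) and 2 (mouse 1 below), against 16.2% and 27.4% of genes. Irf9 stood at 31.003 and 20.95 CPM in those positive tubes and 34.4 and 31.96 CPM in the negative tubes, a difference of -0.37 ± 0.17 (edgeR adjusted p = 0.74). The interaction of gate with class, HSC-like against lineage-named, called 0 of 31 members and 0% of 14101 genes with edgeR, with 0 members at an unadjusted p under 0.05. A missed threshold does not show that the gates are alike: on data simulated from these tubes, the test over 16586 genes in all cells recovered 70.4% of genes changed by 0.5 on the log2 scale. In that simulation 13 unchanged genes were called as well.

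Among the wider lists in all cells, 3 of 100 other interferon-stimulated genes were called, each higher in tdTomato-positive cells, where 0.796% of all genes were called. They were Cxcl10 (1.898 ± 0.19), Ifi209 (0.43 ± 0.11) and Ms4a4c (0.86 ± 0.22), with edgeR adjusted p of 4.9e-10, 0.027 and 0.041. Irf8 was the 1 gene called of 21 receptor and signalling genes (0.24 ± 0.04, edgeR adjusted p = 1.8e-04). Cxcl10, a chemokine that draws T cells, stood at 3.05 and 2.78 CPM in the positive tubes and 1.15 and 0.461 CPM in the negative tubes. These levels rest on few cells: 15 of 3867 and 13 of 3933 positive cells had a Cxcl10 UMI, and the top 5 cells of each tube held 91.3% and 91.8% of the UMIs. With GEM-X cells alone the difference was -1.697 (edgeR adjusted p = 0.91), and with v3.1 cells alone 3.16. Irf8, Ifi209 and Ms4a4c were called with neither chemistry alone (edgeR adjusted p for Irf8 of 0.58 and 0.16), and Ms4a4c was lost without Scrublet doublets (0.068). Dropping the mouse block ended all 4 calls, and DESeq2 made the Cxcl10 call alone (adjusted p = 0.0022). Leaving out any 1 tube, in a fit that also lacks the block, ended them too, with Cxcl10 from 1.33 to 2.69. Without the highest 1% of cells by summed members, Ifi209 and Ms4a4c were no longer called (edgeR adjusted p = 0.28 and 0.35). Within HSC-like cells, 0 of 89 other interferon-stimulated genes and 0 of 21 receptor and signalling genes were called (0.00736% of all genes). Cells of the 4 lineage-named classes were 494 of 3867 and 333 of 3933 positive cells. Among negative cells they were 1346 of 12144 and 852 of 12386. The part of class mix in the all-cell calls was not tested.

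Between the mice, 27 of 31 members were higher in mouse 1 than in mouse 2 in both gates of HSC-like cells and 0 were lower in both on TMM-scaled values, where 29.05% of 13587 genes were higher and 31.2% lower. On CPM by library total, both mouse 1 tubes lay above both mouse 2 tubes for 21 members, as for 20.3% of the 13587 genes, and below for 1, as for 24.99%. Rsad2 stood at 14.05 and 12.3 CPM in mouse 1 and 7.85 and 8.24 CPM in mouse 2. Ifitm3 stood at 707 and 719 CPM in mouse 1 and 581 and 579 CPM in mouse 2. In all cells 19 members were higher in mouse 1 and 5 lower, against 38.04% and 36.8% of genes. Depth per cell was also higher in mouse 1, and its part in the difference was not tested. With 1 mouse on each side these values are descriptions with no test.

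**Figure D4:**
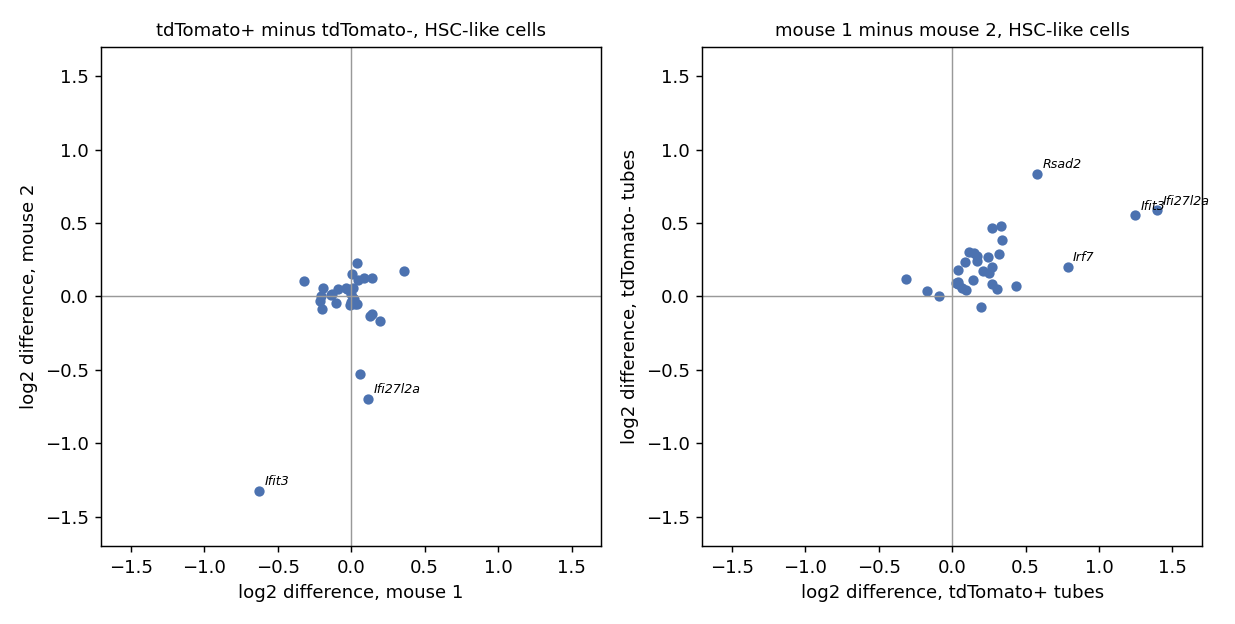
Log2 differences of 31 members in HSC-like cells, 1 point per gene: tdTomato-positive minus tdTomato-negative in mouse 1 and mouse 2 (left), and mouse 1 minus mouse 2 in the positive and negative tubes (right). Points lie on both sides of 0 for the gate, and 27 of 31 lie above 0 on both axes for the mice.

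Cell-to-cell spread was taken as the variance-to-mean ratio of UMIs in cells thinned to 4000 UMIs, within each tube and chemistry. The ratio is 1 for pure counting noise. Beyond that it rises with the mean level, which was not matched between genes. In HSC-like cells with GEM-X, 18 of 30 members detected exceeded 1.2, against 6.74% of genes, and with v3.1 15 of 30 did, against 8.61% of genes. The members' medians were 1.22 and 1.19, and those of all genes 1.04 and 1.04. With thinning to 2000 UMIs, 8 of 29 and 8 of 30 members exceeded 1.2, against 2.21% and 3.53% of genes. Iigp1 was the most uneven member, at 3.06 and 3.29 for GEM-X and v3.1, with tubes from 2.05 to 4.18 and 2.72 to 4.57. Its mean was only 0.281 and 0.302 UMIs per thinned cell. By this ratio Ifitm1 followed with 1.99 and 2.83, at the higher means of 3.67 and 6.34 UMIs, so its place partly follows its level. Gm4951 stood at 1.4 and 1.63, Isg15 at 1.38 and 1.64 and Irf1 at 1.38 and 1.37. Oas1a, at 1.02 and 1.01, and Bst2, at 1.03 and 1.098, lay near counting noise.

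Some members tended to be high in the same HSC-like cells. Over 8 sets of cells (tube and chemistry, 272 to 1806 cells each), the mean correlation of a member with the sum of the others was 0.25 for Gm4951, 0.24 for Iigp1, 0.24 for Rtp4 and 0.22 for Isg15. At the low end it was 0.02 for Ifi27l2a, 0.02 for Ifi27 and 0.04 for Ifit2. Over the 11774 other genes with levels in the range of the members, the correlation with the sum ran from -0.03 to 0.03 between the 5th and 95th percentiles. Of 465 pairs of members, 128 (27.5%) were positive in all 8 sets, against 0.377% of the pairs of all 11805 genes in that range. The pairs of members were led by Iigp1 with Gm4951 (0.24) and Ifitm1 with Ifitm3 (0.21). The cells of a set share a library, and in counts this sparse these small values are only a description.

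The per-cell sum of the 29 members had a long upper tail. In HSC-like cells with GEM-X the median thinned cell held 5 UMIs of these genes, the 95th percentile was 13 and the highest cell held 92. In megakaryocyte-platelet-like cells the median was 3, the 95th percentile 6 and the highest cell 16. The variance-to-mean ratio of the sum was 3.69 in HSC-like, 3.19 in lymphoid-like, 2.398 in granulocyte-monocyte-like and 1.47 in megakaryocyte-platelet-like cells with GEM-X. With v3.1 these ratios were 3.598, 4.34, 2.02 and 1.81, so lymphoid-like cells came first there. The means of the sum in the same classes were 5.81, 4.65, 2.02 and 2.81 UMIs with GEM-X. With v3.1 they were 4.75, 4.14, 1.85 and 2.45 UMIs. Beyond counting noise the ratio rises with the mean, so its order over classes mixes level and spread.

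**Figure D5:**
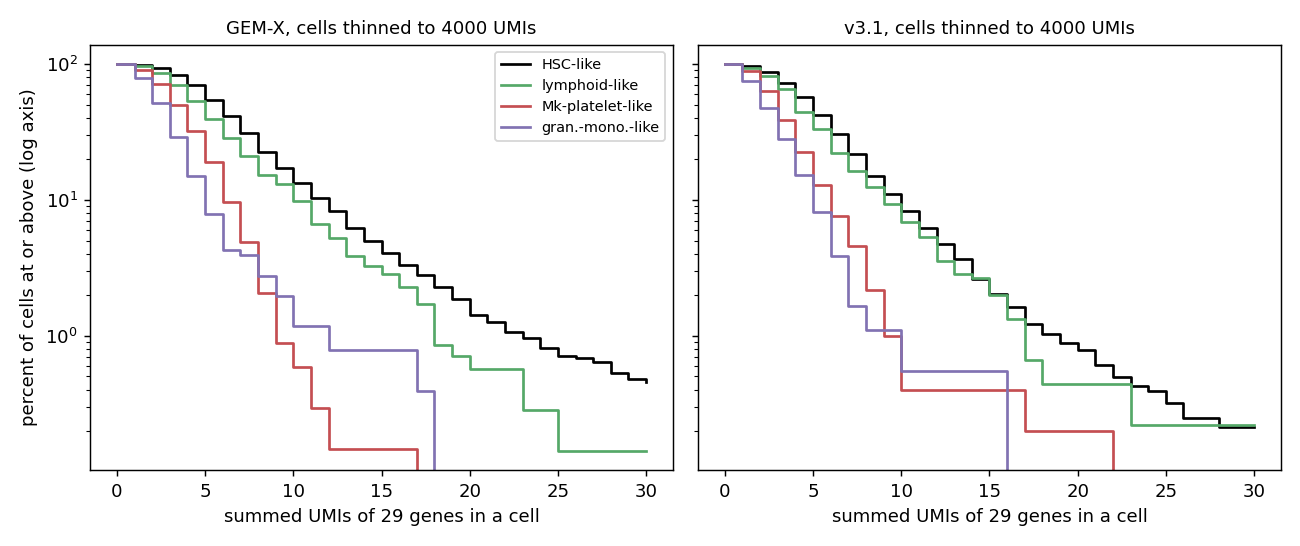
Percent of cells (log axis) whose summed UMIs of 29 members are at or above the value on the x axis, in cells thinned to 4000 UMIs, for 4 classes (lines) and each chemistry (panels). The x axis stops at 30 UMIs, where the HSC-like and lymphoid-like curves still hold some cells, while the megakaryocyte-platelet-like cells end at 16 and 21 UMIs and the granulocyte-monocyte-like cells at 17 and 15.

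The highest 1% of cells by this sum were 343 of 30546 thinned cells, with at least 18 UMIs (GEM-X) or 16 UMIs (v3.1) of the 29 members against medians of 4 and 3. They are a range and not a cell type, since 52 and 36 cells lay 1 UMI below. HSC-like cells made up 39.7% of them and 21.9% of the other cells. The range held 2.01% of HSC-like cells (exact 95% interval 1.69 to 2.38), 1.03% of lymphoid-like cells (0.536 to 1.8001) and 0.169% of megakaryocyte-platelet-like cells (0.0205 to 0.609). It held 0 of 439 granulocyte-monocyte-like cells, which allows up to 0.683% (3 cells of the total), and 0 of 166 erythroid-like cells, which allows up to 1.81%. The exact 95% upper bounds for these 0 counts are wider, 0.837% and 2.198%. All these intervals and limits cover counting error over cells pooled from the tubes, and cells are not replicates. The unnamed cluster with Wfdc17, Sema3d and Ccl3 had 2.72%.

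By gate, the range held 1.18% and 1.05% of cells sorted tdTomato-negative from mouse 1 and mouse 2 and 1.12% and 1.18% in their positive tubes. Within HSC-like cells these shares were 1.94% and 2.06% in the negative and 2.37% and 1.76% in the positive tubes. The gates overlap on both counts. With Ifitm1 and Ifitm3 in the sum, the HSC-like shares became 3.502% and 1.84% in the negative and 3.64% and 1.54% in the positive tubes, with both tubes of mouse 1 above both of mouse 2. An exact permutation test of 2 tubes against 2 cannot give a two-sided p under 0.333, so none was run.

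Genes outside the sum were also high in these cells. Of 86 other interferon-stimulated genes with enough UMIs, 78 were higher in the highest 1% than in the rest in all 4 tubes, with a median ratio of 2.59, against 9.57% of 12754 genes past the same minimum level. Within HSC-like cells alone, 52 of the 86 were higher in all 4 tubes, against 4.35% of 12933 genes. Over all classes, Ly6a stood at 1.13 against 0.301 UMIs per thinned cell and Ifitm3, a member outside the sum, had a ratio of 2.29. Cxcl10 stood at 0.608 against 0.00138 UMIs, a mean that rests on few cells. Before thinning, the top 5 cells of each tube held 56.6% to 91.8% of its Cxcl10 UMIs. Mki67, a marker of cycling cells, was at 0.212 against 1.18, and Mecom, a stem cell factor, at 3.31 against 2.33. HSC-like cells were 39.7% of the highest cells and 21.9% of the rest, and the part of class mix in these values was not tested. Before thinning these cells had a median of 6874 UMIs against 8826, and Scrublet called 0.875% of them doublets against 5.201% of the rest.

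The chemistries read the members differently. Between GEM-X and v3.1 libraries of the same tubes, 16 of 31 members were higher and 13 lower with GEM-X (37% and 36.2% of 15862 genes). Ifitm1 stood at 627, 603, 489 and 492 CPM with GEM-X and 1068, 1055, 855 and 847 CPM with v3.1, a difference of -0.76 ± 0.01 (edgeR adjusted p = 1.3e-18). Tgtp2 stood at 30.8, 29.8, 32.8 and 34.4 CPM with GEM-X and 6.201, 5.09, 6.67 and 6.27 CPM with v3.1, a difference of 2.39 ± 0.05 (edgeR adjusted p = 3.8e-18). Ifitm3 (-0.695), Rtp4 (-0.55) and Ifi27l2a (-0.54) were lower with GEM-X, and Xaf1 (0.92) and Ifih1 (0.92) higher. The file headers name different Cell Ranger versions for the libraries, so kit and software cannot be told apart. Comparisons of gates and classes summed both chemistries within a tube.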

How the data were processed

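Transcripts and hashtags of sorted marrow cells were counted in 4 tubes (2 mice by tdTomato gate), each run with both chemistries. The deposited values are raw UMI counts per gene and barcode, per the file headers written by Cell Ranger 8.0.1 for GEM-X and by 7.1.0 for the other matrix, taken to be v3.1 because it is the other chemistry. The submitters' processing notes name Cell Ranger 7.0.0 and mm10. Here, barcodes under 1000 genes or over 10% mitochondrial counts were dropped (20140 of 20511 and 16721 of 17755 stayed), hashtags were called with a Gaussian mixture (posterior 0.5), and cells with more than 1 hashtag (2091 and 2364) or none (63 and 13) were left out. Scrublet called 4.84% and 5.11% of the remaining cells as doublets, which stayed in (their removal was an alternative). Clustering used 2000 variable genes, 30 components and Leiden resolution 1 (alternative 0.5; scanpy 1.11.5). A class needed at least 3 markers raised by 0.5 on the log2 scale and most of those detected.

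Counts summed per tube held 34833395 to 131548131 UMIs and were tested with edgeR 4.0.16 (quasi-likelihood, TMM, filterByExpr, dispersion of at least 1e-04, Benjamini-Hochberg at 0.05) in R 4.3.3, with DESeq2 1.42.0 as an alternative. The mouse is a block because both tubes of a mouse come from 1 animal. Their deviations correlated at 0.561 over 16586 genes. The tests were tried on simulated data. Intervals of shares are exact binomial. Promoters come from RefSeq.

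The members and lists were chosen with earlier results of these data known. All members are accounted for. Full statistics go to up to 6 per direction with the largest change past the test, and from each wider list up to 4 genes with the smallest adjusted p are named. Other members and genes were named after their values were seen.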

Additional observations from a re-analysis of the deposited data

How the results depend on the processing

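The gate comparisons in all cells and in HSC-like cells called 0 members under each alternative run (RLE normalization, DESeq2, no filter on low counts, single chemistries, doublets left out, the highest 1% of cells left out, each tube left out), and 1 member was called lower in lineage-named cells with v3.1 alone. Over all genes the calls between gates were less stable: 132 in all cells became 0 without the replicate block, 6 with DESeq2, 208 with no filter, 1 with GEM-X alone, 61 with v3.1 alone, 29 without the highest 1% of cells and 0 to 1 without any 1 tube. The fits without a tube also lack the block, since 3 tubes leave no residual with it, so the effect of the tube alone was not measured. The 75 in lineage-named cells became 0 without the block, 3 with DESeq2, 7 with GEM-X alone, 117 with v3.1 alone and 0 to 1 without any 1 tube, and the 1 in HSC-like cells ranged from 0 to 6. Without the replicate block the gates called 0 members, the chemistry contrast called 7 members lower in place of 13 (Ifi27l2a among those lost, -0.55, edgeR adjusted p = 0.15), and in lymphoid-like cells Irf1 and Ifi44 were lost. Ifi44 was also lost there with DESeq2, with v3.1 alone and without the negative tube of mouse 1. Per cell, members higher and lower became 15 and 10 in lymphoid-like, 7 and 17 in megakaryocyte-platelet-like, 10 and 13 in erythroid-like, and 7 and 14 in granulocyte-monocyte-like cells, and 2 were higher in B cell-like cells. Over these classes, 36.3% to 79.8% of all genes were called higher per cell and 8.18% to 17.7% lower. The offset itself moves every gene by the depth per cell. With v3.1 alone 3 members were higher in lymphoid-like cells, with Irf7 at 0.22 (edgeR adjusted p = 0.33), and the cause was not tested. Leaving out each tube gave 4 to 5 members higher and 17 to 19 lower in lymphoid-like cells, 1 to 1 and 27 to 28 in megakaryocyte-platelet-like cells, and 15 to 17 and 11 to 13 for chemistry. Thinning to 2000 UMIs left 8 members above 1.2 in HSC-like cells with either chemistry, and 8 (GEM-X) and 9 (v3.1) in all cells, since fewer UMIs shrink the ratio toward 1. With Ifitm1 and Ifitm3 in the sum, 54.2% of the highest cells were HSC-like. No call of a member named in the text changed direction in these alternatives, except on the per-cell scale. Depth limits the members with few UMIs, such as Ifit3, and the tubes with few cells of a class (52 lymphoid-like cells in the smallest).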

Other observations

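In the smaller classes, added after seeing the data, 69 of 88 other interferon-stimulated genes were lower and 8 higher than in HSC-like cells on the CPM scale in erythroid-like cells, where 43.8% and 35.7% of all genes were. The counts were 60 and 19 in granulocyte-monocyte-like cells (41.4% and 36% of genes) and 43 and 11 in B cell-like cells (30.2% and 26.3%). Per cell, of 84 tested, 24 were lower and 32 higher in erythroid-like (12.2% and 74.1% of genes), 19 and 50 in granulocyte-monocyte-like (8.18% and 79.8%), and 21 and 16 in B cell-like cells (17.7% and 36.3%). The values that follow are on the CPM scale. In erythroid-like cells Ifi203, of a DNA-sensor family, was at -3.999 and Epsti1 at -5.18 on the log2 scale. Ly6e, a surface protein that limits coronavirus entry, was higher in granulocyte-monocyte-like (1.57 ± 0.06) and B cell-like cells (2.05 ± 0.07). Ifi209 was higher in the same classes (6.905 and 8.08). Psme2, a proteasome activator subunit, was higher in granulocyte-monocyte-like cells (1.4), as was Ifngr1 (1.64).

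In the lineage-named classes pooled, 4 genes of the wider lists were called between the gates by edgeR, where 0.577% of all genes were called, each on few cells. Shares of the classes in this pool were not matched between gates, and their part was not tested. Cxcl10 (2.72 ± 0.44, adjusted p = 9.1e-06), Cxcl9 (1.36 ± 0.31, adjusted p = 0.0056), both chemokines, and the RNA receptor gene Tlr3 (1.95 ± 0.49, adjusted p = 0.025) were higher in tdTomato-positive cells, and the chemokine gene Ccl5 was lower (-1.63 ± 0.41, adjusted p = 0.025). In the positive tube of mouse 1, 1 cell held 80 of 81 Cxcl10 UMIs, and in that of mouse 2, 1 cell held all 97 Cxcl9 UMIs. Tlr3 was seen in 5 of 494 and 7 of 333 positive cells, and Ccl5 in 6 and 3. All 4 calls ended without the mouse block, with DESeq2 and, in fits that also lack the block, without any 1 tube. The Cxcl10 value turned to -1.87 without the positive tube of mouse 1, the Cxcl9 value to -1.1 without that of mouse 2, and the Ccl5 value to 0.95 without the negative tube of mouse 1. None of the 4 was called with GEM-X alone, and Cxcl10 was the 1 called with v3.1 alone; genes under the filter on low counts were not tested there. Without the highest 1% of cells Cxcl10 no longer passed that filter.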
